A study of Homo sapiens and Homo sapiens
Mus with 12 samples.

Results

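The 34 genes described here carry glucose into the cell, take it to pyruvate, turn pyruvate into lactate and export it, or admit pyruvate into mitochondria. They were listed by name, by pathway step and isoform. All 34 were listed among the 21466 genes counted in cultured cells and among the 26813 human genes counted in tumors. After the filter on low counts, 33 of the 34 were tested in cultured cells (of 9859 genes) and 29 in tumors (of 9184 genes). PFKFB2 was not tested in cultured cells, and SLC2A3, PFKFB2, ALDOA, ALDOC and PDK2 were not tested in tumors.

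The libraries came from UM-UC-3, a line of advanced human bladder cancer, in which CDH11, the gene of a cadherin of mesenchymal cells, was knocked down (KD) with 2 hairpins. Every group, shCtrl included, carried a GIPZ lentiviral vector with GFP and was a sorted pool of infected cells: shCtrl cells had a nonsilencing hairpin, and sh#1 and sh#2 cells each had 1 hairpin against CDH11. RNA was taken from cells cultured for 24 h (3 libraries per group) and from subcutaneous tumors grown from the same lines in male nude mice, which were 5 weeks old at inoculation and had carried the tumor for 4 weeks (5 tumors per group). Nude mice lack mature T cells and keep other host cells, and where the labels do not name separate cultures, p-values measure the spread between these libraries.

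Glycolysis splits a glucose into 2 molecules of pyruvate. Lactate dehydrogenase reduces pyruvate to lactate, which leaves the cell through monocarboxylate transporters, while the pyruvate carrier and the pyruvate dehydrogenase complex bring its carbon into the mitochondrial tricarboxylic acid cycle. Pyruvate dehydrogenase kinases (PDKs) phosphorylate that complex and switch it off. Many of these genes are known targets of hypoxia-inducible factors, which bind DNA at a short core, ACGTG or GCGTG, and cells that rely on glycolysis typically express them together.

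Because of that background, the promoter windows of the genes were read for both cores. RefSeq windows of GRCh38.p14, each from 250 bases before to 50 bases after a transcription start, were at hand for 31 of the 34 genes (63 windows) and, in all, for 27305 genes (35116 windows). ACGTG was found on either strand in 23 of the 63 windows (36.5%, against 21.4% of all windows) and GCGTG in 29 (46.0%, against 36.5%). Counted by gene, 19 of 31 genes had ACGTG in at least 1 window, against 24.9% of all genes, and 24 of 31 had GCGTG, against 40.6%. The counts by gene are not on an equal footing. The 31 genes had more windows per gene than all genes had, and each window is a further chance of a match. The counts by window have limits too: several windows came from the same gene, and all windows were not matched to these by base composition. Among the genes that rose with both hairpins, 9 of 13 had ACGTG, and among those that rose with neither, 5 of 8 did. GCGTG was found in 9 of 13 and in 7 of 8 of these genes, and no test was made of these shares. A match is a description of the letters and not of a bound site.

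The 6 stretches printed here come from genes that rose with sh#2. For each such gene the window with the most ACGTG matches before its start was taken. Stretches that overlapped an annotated exon were left out, which left these 6. Their genes stand at hexokinase, phosphofructokinase, the pair of enzymes after triose phosphate, lactate dehydrogenase and the lactate exporter. Capitals mark ACGTG or its reverse complement CACGT. Both overlap in CACGTG, which holds a match on each strand. All stretches lie on the plus strand, before a RefSeq start and outside annotated exons (GENCODE v44). The LDHA stretch lies upstream of the gene, and the other stretches lie inside the span of longer gene models, in introns.
HK2 (chr2:74834961-74835041): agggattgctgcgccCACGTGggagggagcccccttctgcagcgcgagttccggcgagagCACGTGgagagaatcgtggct
PFKP (chr10:3069035-3069069): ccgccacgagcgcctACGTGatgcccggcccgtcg
GAPDH (chr12:6535168-6535203): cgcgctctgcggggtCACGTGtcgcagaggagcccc
PGK1 (chrX:78104031-78104084): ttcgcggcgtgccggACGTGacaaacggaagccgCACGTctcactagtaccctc
LDHA (chr11:18394363-18394509): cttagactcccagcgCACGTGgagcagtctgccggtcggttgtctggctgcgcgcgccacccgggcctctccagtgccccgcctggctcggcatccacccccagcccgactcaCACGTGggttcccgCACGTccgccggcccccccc
SLC16A3 (chr17:82228959-82229006): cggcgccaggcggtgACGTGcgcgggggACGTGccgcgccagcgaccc
HK2 and LDHA each held 2 copies of CACGTG, GAPDH held 1, and SLC16A3 held 2 copies of ACGTG on the same strand.

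Totals counted on genes ranged from 2273182 to 2777019 per cultured library and from 414849 to 1248977 human counts per tumor. The targeted gene gave 2, 4 and 4 counts in the shCtrl libraries, against 0, 0 and 1 with sh#1 and 1, 2 and 0 with sh#2, too few to measure the knockdown at this depth. In tumors its counts were 5 to 32 (median 15) in shCtrl, 1 to 9 (median 3) in sh#1 and 2 to 14 (median 7) in sh#2. Of 13 epithelial and urothelial markers, EPCAM, CDH1, UPK1B and UPK3A were at 0 in every cultured library, and KRT8 and KRT18 gave most of the list's counts. Levels are given as normalized CPM, a count as a share of its library total after TMM scaling, and a q value is a Benjamini-Hochberg adjusted p-value of edgeR's quasi-likelihood test over all genes tested. "Rose" is used for q under 0.05 in cultured cells.

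In cultured cells, CDH11 KD (both hairpins, n = 6) was compared with shCtrl (n = 3) to ask how the glucose route to lactate and to the mitochondrion changed. Glucose transporters, hexokinases, the phosphofructokinase PFKP, PFKFB4, ENO2, the lactate exporter SLC16A3, PDK1 and PDHA1 rose, PDHA1 not under every normalization. In all, 10 of the 33 genes tested rose, where 9.12% of all genes did, and 0 fell, where 8.32% of all genes did. At an unadjusted p under 0.05, 15 genes were higher and 1 was lower, where 31.8% of all genes were under 0.05 in either direction. DESeq2 called 15 higher and 0 lower, and no share over all genes is given for it. The median log2 fold change of the 33 genes was 0.41, against 0.00 over all genes tested, and 29 of the 33 values were above 0. By edgeR, the count of genes that rose was 6 when any of the 3 shCtrl libraries was left out, again without a share over all genes. In the fit with 3 groups, the mean of both hairpins was higher for 20 genes (16.5% of all genes) and lower for 0 (16.8% of all genes, with 1 member at an unadjusted p under 0.05).

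The hairpins differed in how far they reached. With sh#1, 15 genes rose (11.8% of all genes) and 0 fell (10.6% of all genes). At an unadjusted p under 0.05, 3 were lower, where 33% of all genes were under 0.05 in either direction. DESeq2 had 1 lower at an unadjusted p under 0.05 and called 0 lower. With sh#2, 23 genes rose (19.5% of all genes) and 0 fell (18.8% of all genes). At an unadjusted p under 0.05, 0 were lower, where 46% of all genes were under 0.05 in either direction. DESeq2 had 0 lower at either threshold. The median log2 fold change of the 33 genes was 0.20 with sh#1 and 0.76 with sh#2, and both comparisons used the same shCtrl libraries. By gene, 14 rose with both hairpins, where 8.35% of all genes rose and 6.6% fell with both. Of the others, 9 passed with sh#2 alone, DLAT passed with sh#1 alone and 9 passed with neither. Together the 34 genes took 2.20 to 2.26% of all counts in shCtrl, 2.28 to 2.46% in sh#1 and 3.30 to 3.43% in sh#2 libraries. These sums lean on GAPDH, the member with the most counts (63874 in shCtrl, 73091 in sh#1 and 99193 in sh#2, over 3 libraries each).

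**Figure D1:**
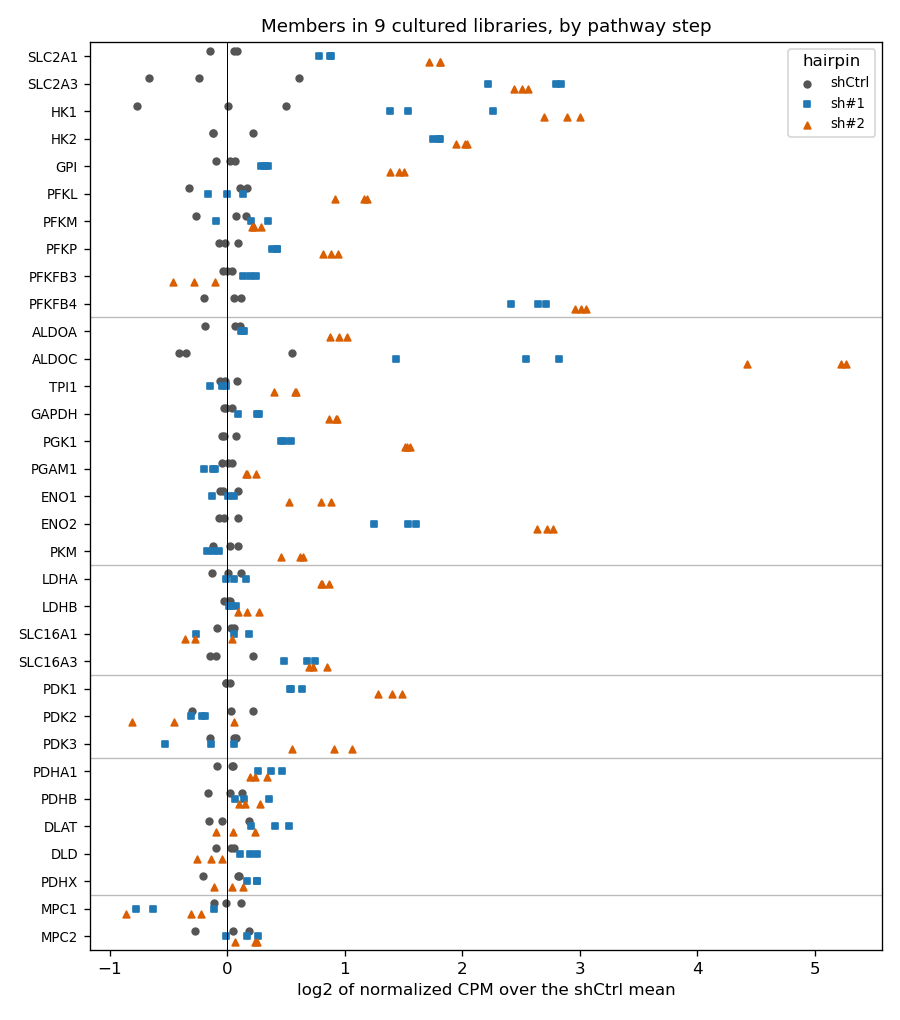
Each point is 1 of the 9 cultured libraries and gives the log2 of normalized CPM over the shCtrl mean (x axis) for the 33 genes tested (y axis, in pathway order, lines between stages), with shCtrl as circles, sh#1 as squares and sh#2 as triangles. The sh#2 triangles lie right of the shCtrl circles at all 9 genes from aldolase to pyruvate. The sh#1 squares lie right of the circles at the 14 genes that rose with both hairpins, PDK1 and SLC16A3 included, and at some others. ALDOC rests on 1 or 2 counts per shCtrl library.

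Transcripts of genes for glucose uptake and phosphorylation rose with both hairpins. SLC2A1, the basal glucose transporter GLUT1, had 119.7, 141 and 138 normalized CPM in shCtrl, 244, 227 and 243 in sh#1 and 465, 465 and 437 in sh#2 libraries. The groups formed 3 separate steps, with sh#2 highest. SLC2A1 rose with CDH11 KD by a log2 fold change of 1.38 ± 0.31 (SE, q = 0.018), from 0.85 ± 0.07 with sh#1 (q = 1.04e-13) to 1.78 ± 0.07 with sh#2 (q = 2.86e-28). The call for CDH11 KD was lost when any 1 shCtrl library was left out.

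SLC2A3, the high-affinity transporter GLUT3, had 2.76, 2.05 and 4.95 normalized CPM in shCtrl, 15.2, 22.6 and 23.3 in sh#1 and 19.1, 17.7 and 18.5 in sh#2 libraries. All 6 KD libraries lay above shCtrl and the hairpins overlapped, on 5 to 13 counts per shCtrl library. Its log2 fold change was 2.62 ± 0.28 with sh#1 (q = 8.37e-11) and 2.47 ± 0.30 with sh#2 (q = 6.70e-10), and the difference of the hairpins, 0.15 ± 0.21, did not pass (q = 0.67).

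Hexokinases trap glucose in the cell by phosphorylating it. HK2, the inducible isoform bound to mitochondria, had 72.0, 72.2 and 91.1 normalized CPM in shCtrl, 273, 264 and 274 in sh#1 and 302, 323 and 318 in sh#2 libraries. The KD libraries were all far above shCtrl, and the gap between the hairpins was small. HK2 rose by 1.90 ± 0.11 with CDH11 KD (q = 2.21e-09), the smallest q value among the 33 genes in that comparison. HK1, the housekeeping isoform, had 5.90, 2.46 and 4.19 in shCtrl, 20.1, 12.2 and 10.9 in sh#1 and 27.1, 31.1 and 33.6 in sh#2 libraries. These groups did not overlap either, on 6 to 15 counts per shCtrl library, and HK1 rose by 2.38 ± 0.46 (q = 0.0048).

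GPI, which turns glucose 6-phosphate into fructose 6-phosphate, had 378, 423 and 409 normalized CPM in shCtrl, 503, 512 and 493 in sh#1 and 1054, 1141 and 1108 in sh#2 libraries. The sh#2 libraries stood at more than the sum of a shCtrl and a sh#1 library, with no overlap among the groups. GPI rose by 0.32 ± 0.06 with sh#1 (q = 7.59e-05) and by 1.45 ± 0.06 with sh#2 (q = 1.18e-27), and with CDH11 KD its value of 0.99 ± 0.37 did not pass (q = 0.11).

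At phosphofructokinase, the committed step of glycolysis, the isoforms differed. PFKP, the platelet isoform, had 276, 307 and 285 normalized CPM in shCtrl, 387, 388 and 377 in sh#1 and 507, 533 and 557 in sh#2 libraries. It rose in 3 steps without overlap and by 0.66 ± 0.13 with CDH11 KD (q = 0.0030). PFKL, the liver isoform, rose with sh#2 by 1.09 ± 0.11 (q = 5.28e-12) and had a log2 fold change of 0.00 ± 0.11 with sh#1 (q = 0.99). PFKM, the muscle isoform, passed with neither hairpin (0.17 ± 0.17 with sh#1 and 0.24 ± 0.17 with sh#2).

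The bifunctional PFKFB enzymes set the level of fructose 2,6-bisphosphate, which activates phosphofructokinase. PFKFB4 had 8.27, 9.84 and 10.3 normalized CPM in shCtrl, 61.9, 59.1 and 50.4 in sh#1 and 78.4, 73.6 and 76.5 in sh#2 libraries. The lowest KD library stood well above the highest shCtrl library, and the hairpins did not overlap (difference -0.42 ± 0.12, q = 0.0051, lost without sh#1 library 3). PFKFB4 rose by 2.80 ± 0.19 with CDH11 KD (q = 1.43e-08), the largest rise among the 10 genes that passed. PFKFB3, the form of high kinase activity, had a log2 fold change of 0.19 ± 0.14 with sh#1 and of -0.27 ± 0.16 with sh#2, neither of which passed, and was higher in sh#1 than in sh#2 cells by 0.46 ± 0.16 (q = 0.022), a call lost by DESeq2 (q = 0.11) and without sh#1 library 1 or 2 or sh#2 library 1 or 3 (q from 0.051 to 0.12).

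From aldolase to pyruvate, all 9 genes rose with sh#2 and 4 rose with sh#1 (ALDOC, GAPDH, PGK1 and ENO2). GAPDH, which oxidizes glyceraldehyde 3-phosphate, had 8621, 8352 and 8232 normalized CPM in shCtrl, 9982, 10130.5 and 8961 in sh#1 and 16023, 15973 and 15302.5 in sh#2 libraries. The sh#1 libraries lay just above shCtrl, and the sh#2 libraries lay far above both. GAPDH rose by 0.21 ± 0.05 with sh#1 (q = 0.0032) and by 0.91 ± 0.05 with sh#2 (q = 7.96e-21), and its value with CDH11 KD, 0.60 ± 0.20, did not pass (q = 0.063).

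PGK1, which makes the first ATP of the pathway, had 748, 754 and 808 normalized CPM in shCtrl, 1079, 1059 and 1123 in sh#1 and 2198, 2217 and 2267 in sh#2 libraries. The 3 groups stood apart, with narrow spread inside each. PGK1 rose by 0.50 ± 0.06 with sh#1 (q = 4.74e-10) and by 1.53 ± 0.06 with sh#2 (q = 5.70e-30), and with CDH11 KD its 1.10 ± 0.33 did not pass (q = 0.058).

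ENO2, an enolase best known from neurons, had 98.4, 95.5 and 106 normalized CPM in shCtrl, 289.9, 304 and 237 in sh#1 and 622, 683 and 659 in sh#2 libraries. All groups were separate, in the order shCtrl, sh#1, sh#2. ENO2 rose by 2.21 ± 0.45 with CDH11 KD (q = 0.015), a call lost without any 1 of the shCtrl libraries, by 1.46 ± 0.08 with sh#1 (q = 2.29e-20) and by 2.71 ± 0.08 with sh#2 (q = 9.89e-33).

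ALDOC, a second aldolase, had 1, 1 and 2 counts in shCtrl, 9, 7 and 4 in sh#1 and 24, 42 and 40 in sh#2 libraries. It was near the limit of detection in shCtrl, so no fold is given, and it passed with sh#1 (q = 0.010, lost without sh#1 library 1) and with sh#2 (q = 6.60e-13). The other 5 genes of this stretch rose with sh#2 and did not pass with sh#1. These were ALDOA, the main aldolase (0.95 ± 0.06 with sh#2, 0.13 ± 0.06 with sh#1), TPI1, the triose phosphate isomerase (0.52 ± 0.06 and -0.07 ± 0.06), the mutase PGAM1 (0.19 ± 0.06 and -0.14 ± 0.06), the main enolase ENO1 (0.74 ± 0.08 and -0.02 ± 0.07) and pyruvate kinase PKM (0.58 ± 0.06 and -0.12 ± 0.06). The call of PGAM1 with sh#2 was lost without sh#2 library 2 (q = 0.052). PGAM1 was lower with sh#1 at q = 0.043 under upper quartile normalization, and PKM was lower with sh#1 at q = 0.037 without shCtrl library 1.

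At lactate, LDHA and its exporter behaved differently. LDHA, the lactate dehydrogenase subunit of glycolytic tissue, had 1780.0, 2117 and 1958 normalized CPM in shCtrl, 1938, 2036 and 2177 in sh#1 and 3415, 3399 and 3548 in sh#2 libraries. The sh#1 libraries overlapped shCtrl, and the sh#2 libraries were clear of both. LDHA rose by 0.82 ± 0.06 with sh#2 (q = 9.93e-18), had a value of 0.07 ± 0.06 with sh#1 (q = 0.42) and did not pass with CDH11 KD (0.50 ± 0.22, q = 0.16). LDHB, the subunit of oxidative tissue, rose with sh#2 by 0.18 ± 0.06 (q = 0.011), a call lost without sh#2 library 1 (q = 0.094) and under upper quartile normalization (q = 0.060).

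SLC16A3, the transporter MCT4 that exports lactate, had 42.5, 54.9 and 44.2 normalized CPM in shCtrl, 79.1, 75.6 and 65.9 in sh#1 and 76.5, 85.1 and 78.4 in sh#2 libraries. Every KD library was above every shCtrl library, and the hairpins overlapped. It rose by 0.70 ± 0.12 with CDH11 KD (q = 7.24e-04). SLC16A1, the transporter MCT1, passed in no comparison (0.01 ± 0.10 with sh#1 and -0.18 ± 0.11 with sh#2) and was lower with sh#2 at q = 0.036 only when sh#2 library 1 was left out.

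At the entry to mitochondria, PDK1 rose, while most of the complex that it controls did not pass. PDK1 had 83.1, 83.2 and 85.0 normalized CPM in shCtrl, 121, 130.4 and 122 in sh#1 and 221, 234 and 204 in sh#2 libraries. The 3 groups were separate and tight. PDK1 rose by 1.03 ± 0.25 with CDH11 KD (q = 0.021, lost without any 1 shCtrl library), by 0.57 ± 0.09 with sh#1 (q = 1.22e-06) and by 1.39 ± 0.08 with sh#2 (q = 1.72e-20). PDK3 rose with sh#2 (0.85 ± 0.17, q = 4.06e-05) and not with sh#1 (-0.18 ± 0.19, q = 0.53), and PDK2 passed with neither.

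PDHA1, the catalytic subunit that PDKs phosphorylate, had 88.6, 96.8 and 97.2 normalized CPM in shCtrl, 113, 122 and 130.0 in sh#1 and 111, 119 and 108 in sh#2 libraries. All KD libraries lay above shCtrl by a small margin. PDHA1 rose by 0.32 ± 0.10 with CDH11 KD (q = 0.031), a call lost without any 1 shCtrl library or sh#1 library 3, under the replicate block (q = 0.056) and under upper quartile normalization (q = 0.055). It rose by 0.37 ± 0.09 with sh#1 (q = 0.0015) and by 0.26 ± 0.09 with sh#2 (q = 0.025), and the sh#2 call was lost by DESeq2 (q = 0.079), under upper quartile normalization (q = 0.065) and without shCtrl library 1 (q = 0.094) or sh#2 library 2 (q = 0.11). DLAT, which carries the acetyl group, rose with sh#1 by 0.38 ± 0.13 (q = 0.024), a call lost by DESeq2 (q = 0.11) and without shCtrl library 2 or 3 or sh#1 library 2 or 3 (q from 0.070 to 0.14). PDHB, DLD and PDHX had values from -0.14 to 0.23 with the hairpins, none of which passed. The carrier subunits MPC1 and MPC2 passed with neither hairpin. MPC1 lay below shCtrl in all 6 KD libraries with almost no margin, at most 13.1201 against at least 13.1205 normalized CPM. Its value with CDH11 KD was -0.46 ± 0.21 (q = 0.14), on 16 to 39 counts per library.

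The split of counts between the isoforms of a family is given as shares per library and without a test. PFKFB4 made up 19.8 to 23.3% of counts on PFKFB2, PFKFB3 and PFKFB4 in shCtrl, 57.0 to 61.4% in sh#1 and 69.7 to 75.7% in sh#2 libraries. ENO2 made up 2.60 to 3.15% of counts on both enolases in shCtrl, 7.18 to 8.25% in sh#1 and 9.60 to 11.4% in sh#2. In both families the groups did not overlap. LDHA made up 62.4 to 67.0% of LDHA and LDHB counts in shCtrl, 64.3 to 66.9% in sh#1 and 72.7 to 75.9% in sh#2. Only the sh#2 libraries were apart. PDK1 made up 73.8 to 76.2% of PDK1, PDK2 and PDK3 counts in shCtrl, 82.4 to 85.5% in sh#1 and 81.4 to 86.3% in sh#2, with both hairpins above shCtrl. SLC2A3 made up 1.44 to 3.47% of counts on both transporters in shCtrl, 5.85 to 9.04% in sh#1 and 3.66 to 4.06% in sh#2. SLC16A3 made up 30.3 to 37.9% of counts on both exporters in shCtrl, 37.6 to 48.6% in sh#1 and 43.6 to 53.1% in sh#2, and the sh#1 libraries overlapped both other groups. HK2 made up 92.4 to 96.7% of counts on both hexokinases in shCtrl, 93.1 to 96.2% in sh#1 and 90.4 to 91.8% in sh#2, so that only sh#2 was apart, and lower. PFKP made up 73.6 to 78.2% of phosphofructokinase counts in shCtrl, 78.5 to 81.8% in sh#1 and 73.7 to 75.6% in sh#2, with sh#1 highest and sh#2 within the shCtrl range. MPC2 made up 71.2 to 76.0% of carrier counts in shCtrl, 74.8 to 84.2% in sh#1 and 78.2 to 85.7% in sh#2, and ALDOC at most 1.52% of aldolase counts in any library.

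**Figure D2:**
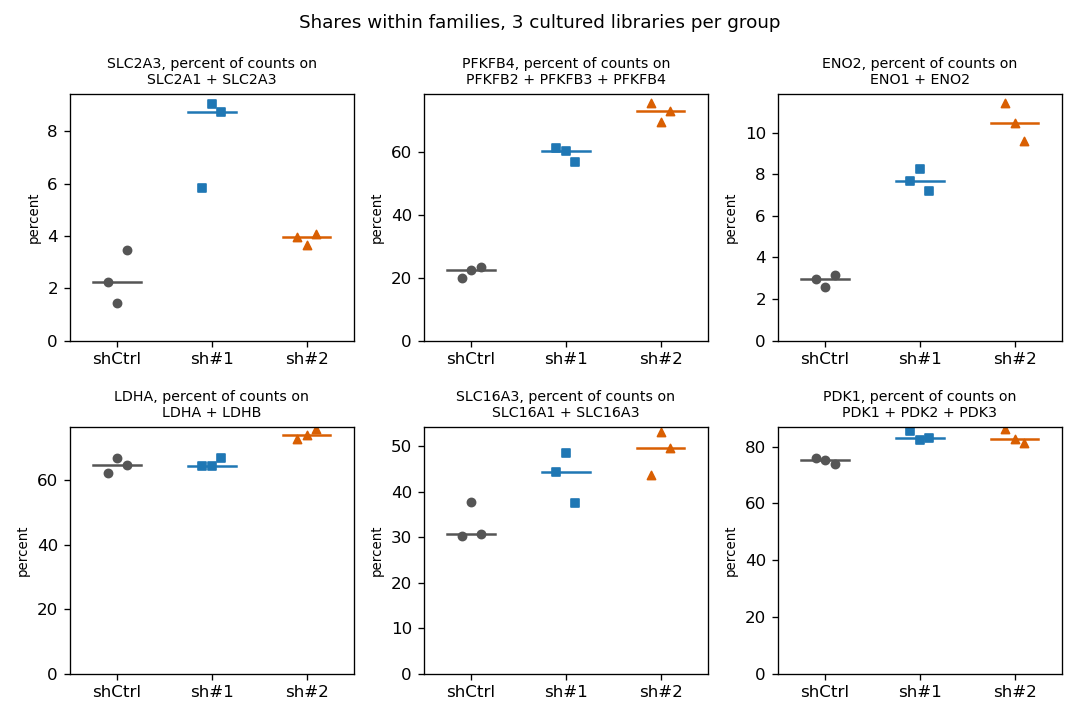
Each panel gives the percent of a family's counts (y axis, from 0) that fell on 1 isoform in the 3 cultured libraries of shCtrl, sh#1 and sh#2 (x axis). Points are libraries and bars are medians. PFKFB4 went from a median of 22.4% in shCtrl to 60.2% in sh#1 and 73.0% in sh#2, and LDHA from 64.7% to 64.6% and 74.0%.

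The difference between the hairpins was tested directly. Of 33 genes, 19 were lower in sh#1 than in sh#2 cells (13.5% of all genes) and 2, PFKFB3 and DLD (0.33 ± 0.10, q = 0.0072, lost without sh#2 library 2), were higher (11.2% of all genes), with a median log2 fold change of -0.42. All 9 genes from aldolase to pyruvate were lower in sh#1. Of the 14 genes that rose with both hairpins, 11 were lower in sh#1, from HK2 at -0.22 ± 0.07 (q = 0.019; q = 0.064 by DESeq2, and lost without sh#1 library 2, sh#2 library 2 or sh#2 library 3) to ENO2 at -1.25 ± 0.07 (q = 4.30e-20), beside ALDOC with its few counts. The 3 others, SLC2A3, SLC16A3 (-0.13 ± 0.11, q = 0.45) and PDHA1 (0.11 ± 0.09, q = 0.39), did not pass. Of the 9 genes that passed with sh#2 alone, 8 were lower in sh#1, and LDHB did not pass (-0.14 ± 0.06, q = 0.065). The genes were sorted by calls from these same libraries, so the counts of 11 and 8 are a description and no separate evidence.

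**Figure D3:**
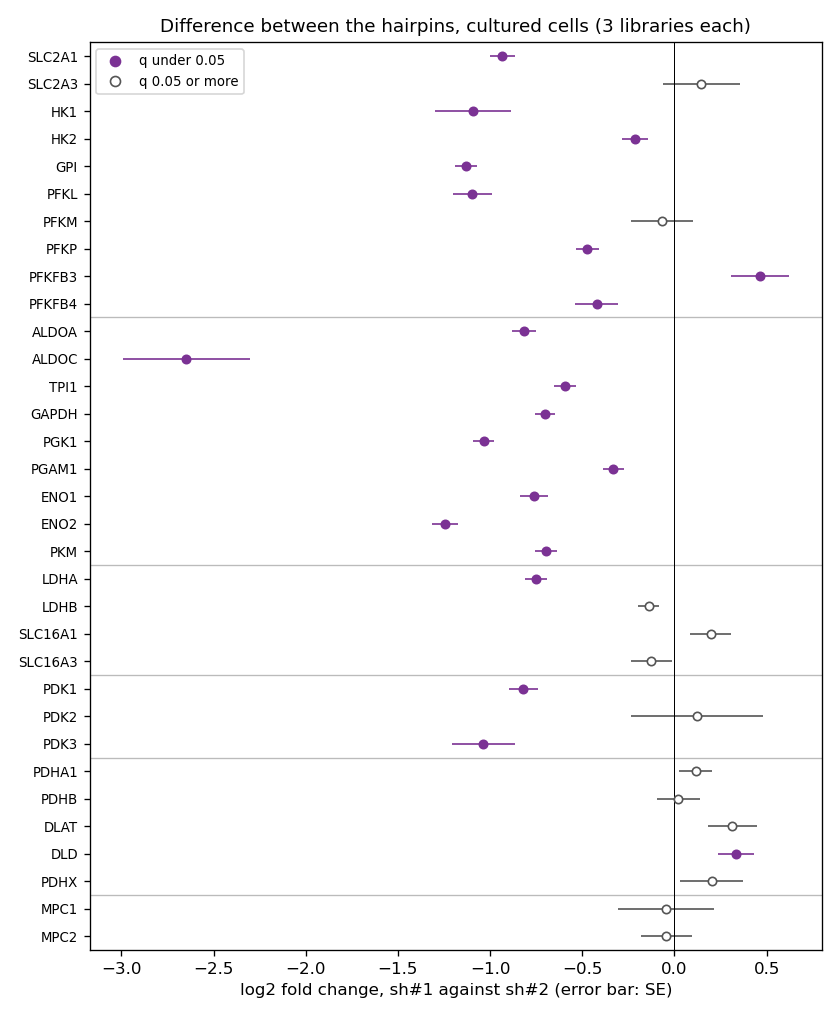
The log2 fold change of sh#1 against sh#2 (x axis, error bars are SE, 3 libraries each) is shown for the 33 genes tested (y axis, in pathway order), filled where q was under 0.05. The 19 filled points left of 0 include every gene from ALDOA to PKM, and the 2 filled points right of 0 are PFKFB3 and DLD.

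Markers that moved with the hairpins stand beside these counts. The summed level of 4 mesenchymal markers was 2283 to 2446 normalized CPM in shCtrl, 2382 to 2584 in sh#1 and 4070 to 4491 in sh#2 libraries, of which VIM made up most. VIM rose by 0.87 ± 0.06 with sh#2 (q = 1.91e-19), while with sh#1 CDH2 fell by 0.58 (SE 0.14, q = 0.0021) and FN1 by 1.53 (SE 0.32, q = 2.02e-04), and ZEB1 passed with neither hairpin. Blood and immune markers summed to 31.2 to 35.1 in shCtrl, 42.6 to 48.0 in sh#1 and 54.1 to 73.5 in sh#2, nearly all of it CD68, while PTPRC, CD3E and HBB were at 0. Epithelial and urothelial markers summed to 238 to 270.2 in shCtrl, 308 to 325 in sh#1 and 280.0 to 293 in sh#2, and of the 4 tested, KRT18 rose with sh#1 (0.54 ± 0.08, q = 2.68e-07) and UPK1A with sh#2 (3.39 ± 0.53, q = 7.42e-07, on at most 20 counts). Endothelial markers summed to at most 0.43 and fibroblast markers to at most 2.05. The part of these markers in the rise of the glycolytic genes was not tested.

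Further lists were read in the same fits, where 9.12% of all genes were higher and 8.32% lower with CDH11 KD. Of 37 other isoforms and regulators, 12 were tested in cultured cells and 2 passed with CDH11 KD. BSG, the chaperone that brings MCT1 and MCT4 to the membrane, rose by 0.47 ± 0.14 (q = 0.029), and EMB, a related chaperone, fell by 0.52 (SE 0.17, q = 0.045). Of 12 pentose phosphate genes, 11 were tested, 0 were higher and DERA fell by 0.40 (SE 0.11, q = 0.020). Of 13 genes of gluconeogenesis and of pyruvate carboxylation, 7 were tested and 2 rose: PCK2, the mitochondrial PEP carboxykinase (1.01 ± 0.23, q = 0.0057), and GPT2, the mitochondrial alanine aminotransferase that links pyruvate and alanine (1.21 ± 0.17, q = 9.88e-05). With sh#2, where 19.5% of all genes were higher and 18.8% lower, 4 of these 7 were higher and 1 was lower, 3 of the 11 pentose phosphate genes were higher and 2 lower, and 1 of the 12 isoforms and regulators was higher and 1 lower. With sh#1 the counts were 2 and 0, 0 and 2, and 1 and 1. The medians of log2 fold change with CDH11 KD were 0.01 for isoforms and regulators, -0.01 for the pentose phosphate genes and 0.29 for gluconeogenesis and carboxylation, against 0.00 over all genes. In tumors 0 genes of these lists passed.

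In tumors, some genes were counted too thinly to follow. ALDOA had 12 human counts over all 15 tumors, against 919 on mouse Aldoa, while in shCtrl cells in culture it stood at 722 CPM without TMM scaling. A gene model that overlaps ALDOA on the same strand (ENSG00000285043, chr16:30053123-30070414) had 1 count. On the same scale, GAPDH was at 195 CPM in shCtrl tumors against 9023 in shCtrl culture, and PGAM1 at 19.2 against 853. These ratios of 46.3 and 44.5 lay at the 99.95th and 99.93rd percentile of the 8308 genes tested in both, whose median ratio was 0.73. The tables were processed separately and their levels were not tested against each other, and whether reads of these genes were lost in the tumor table was not tested.

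Mouse counts made up 14.1% of all counts in the tumors and 4.48% of counts on the 34 genes and their 33 mouse orthologs listed. By gene, the mouse share was above 50% for ALDOA alone. It was 32.9% for SLC16A3, 13.8% for SLC2A1, 9.38% for LDHA, 4.22% for PDK1 and 3.69% for ENO2. These are bulk tumors, in which fewer cells of a kind and less RNA per cell cannot be told apart. In each mouse marker list the groups overlapped: blood and immune markers summed to 6586 to 17872.5 CPM of mouse counts in shCtrl, 6517 to 16923 in sh#1 and 9080 to 23752 in sh#2, and fibroblast markers to 7035 to 18288, 1691 to 12726.5 and 5523 to 20240.2. Endothelial markers summed to 82.3 to 318 and muscle and fat markers to 21.2 to 3770 over all tumors, and 1 of 3 epithelial markers was listed, with at most 1 count. The 5 shCtrl tumors were sequenced in 1 barcoded mix and the sh#1 and the sh#2 tumors each in a mix of their own, so mix and group cannot be told apart.

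One tumor stood apart. The sh#1 tumor 1 had the fewest human counts (414849), the highest mouse share (30.0%, against 10.4 to 18.8% in the other tumors) and the highest share of counts on the 34 genes (0.88%, against 0.60 to 0.80%). For each gene described in tumors, values that include the sh#1 group are therefore also given without it.

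In tumors 0 of the 29 genes tested passed q under 0.1 in any of the comparisons by edgeR's quasi-likelihood test. Over all genes, 1.51% passed with CDH11 KD (n = 10 against 5), 1.48% with sh#1, 2.68% with sh#2 and 1.19% between the hairpins. At an unadjusted p under 0.05, 1 member was higher with CDH11 KD, 3 were higher with sh#1, 1 was lower with sh#2 and 5 were higher in sh#1 than in sh#2, of 29 each. Over all genes, 12.7%, 11.2%, 13.7% and 9.94% were under 0.05 in either direction in these comparisons. Without sh#1 tumor 1, the members at an unadjusted p under 0.05 were 1 with CDH11 KD, 1 with sh#1, 2 with sh#2 and 0 between the hairpins. By DESeq2, ENO2 passed with sh#1 and 0 genes passed in the other comparisons, with 1, 5, 0 and 5 at an unadjusted p under 0.05. No shares over all genes are given for DESeq2 or for the fits without sh#1 tumor 1. The median log2 fold change of the 29 genes was 0.15 with CDH11 KD, 0.22 with sh#1 and -0.01 with sh#2, against 0.01, 0.00 and 0.00 over all genes. Without sh#1 tumor 1 the first 2 medians were 0.09 and 0.17, and ENO2 passed with sh#1. With the mouse to human ratio as a covariate, the medians were 0.07 with CDH11 KD, 0.18 with sh#1 and -0.05 with sh#2.

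ENO2 was the gene nearest to the threshold. It had 26.5, 22.7, 82.1, 51.6 and 52.1 normalized CPM in shCtrl, 297, 104, 74.2, 109.8 and 122 in sh#1 and 52.6, 68.5, 69.9, 90.7 and 68.7 in sh#2 tumors. All 10 KD tumors were above the shCtrl mean, 1 of the shCtrl tumors lay among them, and sh#1 tumor 1 was the highest. The log2 fold change was 1.12 ± 0.42 with CDH11 KD (q = 0.29; 0.89 ± 0.29 without sh#1 tumor 1), 1.50 ± 0.40 with sh#1 (q = 0.13) and 0.62 ± 0.42 with sh#2 (q = 0.58). For sh#1, q was 0.089 without sh#1 tumor 1 (1.16 ± 0.28), 0.061 without shCtrl tumor 3 (1.80 ± 0.40) and 0.014 by DESeq2.

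PDK1 had 24.9, 28.1, 52.4, 35.6 and 50.6 normalized CPM in shCtrl, 119, 50.9, 31.8, 43.5 and 51.5 in sh#1 and 44.1, 45.7, 45.0, 40.6 and 61.1 in sh#2 tumors. The groups overlapped, and 9 of 10 KD tumors were above the shCtrl mean. Its value with CDH11 KD was 0.43 ± 0.24 (q = 0.47), or 0.28 ± 0.17 without sh#1 tumor 1, and with sh#1 it was 0.53 ± 0.28, or 0.26 ± 0.21 without that tumor.

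SLC2A1 had 49.0, 43.3, 114, 88.0 and 58.2 normalized CPM in shCtrl, 183, 164, 67.9, 87.0 and 103 in sh#1 and 68.2, 71.2, 72.8, 39.5 and 93.6 in sh#2 tumors. The 2 highest tumors were both sh#1, and the rest overlapped. Its value was 0.72 ± 0.33 with sh#1 (q = 0.44; 0.58 ± 0.33 without sh#1 tumor 1) and -0.06 ± 0.35 with sh#2 (q = 0.97).

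LDHA had 552, 537, 977, 656 and 457 normalized CPM in shCtrl, 1029, 989, 573, 714 and 594 in sh#1 and 518, 701, 691, 602 and 661 in sh#2 tumors. All groups overlapped, with shCtrl tumor 3 among the highest. Its value was 0.28 ± 0.21 with sh#1 (q = 0.65; 0.18 ± 0.21 without sh#1 tumor 1) and 0.00 ± 0.21 with sh#2 (q = 1.00).

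**Figure D4:**
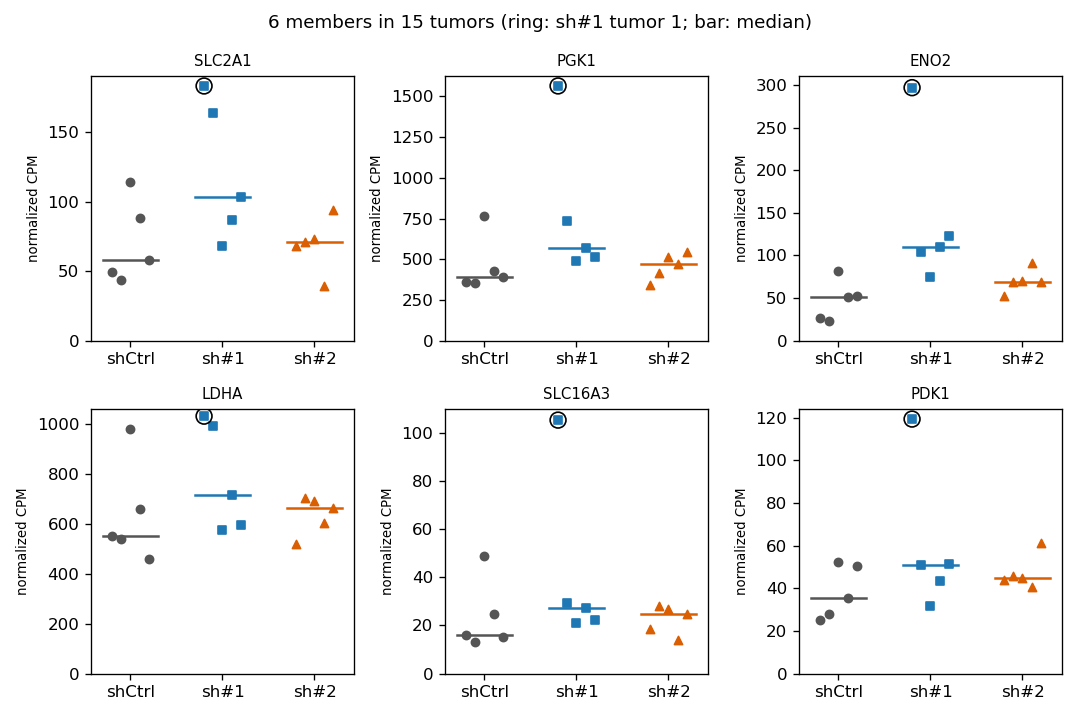
Normalized CPM (y axes, from 0) of 6 genes in the 5 tumors of each group (x axis); bars are medians and the ring marks sh#1 tumor 1. That tumor was the highest of all 15 for each of the 6 genes, and among the other tumors the groups overlapped.

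Of the remaining genes, PGK1 had 363, 354, 767, 429.6 and 391 normalized CPM in shCtrl, 1565, 736, 489, 569.8 and 514 in sh#1 and 344, 415, 514, 473 and 544 in sh#2 tumors. The sh#1 tumor 1 stood far above all others. The value of PGK1 with sh#1 was 0.72 ± 0.33 (q = 0.45), or 0.33 ± 0.22 without that tumor. Its value for sh#1 against sh#2 was 0.73 ± 0.34 (q = 0.50), or 0.34 ± 0.23 without that tumor. At an unadjusted p under 0.05, GPI was higher with sh#1 (0.36 ± 0.17, q = 0.41; 0.20 ± 0.14 without the tumor), DLAT was lower with sh#2 (-0.49 ± 0.23, q = 0.32), and PDK3 was higher in sh#1 than in sh#2 (0.56 ± 0.26, q = 0.44; 0.45 ± 0.26 without the tumor). So were GPI (0.39 ± 0.17, q = 0.42; 0.23 ± 0.14 without the tumor), SLC2A1 (0.78 ± 0.34, q = 0.47; 0.64 ± 0.34) and ENO2 (0.88 ± 0.39, q = 0.47; 0.54 ± 0.28). GAPDH had a value with CDH11 KD of -0.01 ± 0.16 (-0.06 ± 0.15 without the tumor) and PFKFB4, on 1 to 31 counts per tumor, of 0.54 ± 0.61 (0.35 ± 0.56 without it). HK2 had a median of 44.9 normalized CPM in shCtrl tumors (highest 71.8), 53.5 in sh#1 (highest 161) and 44.8 in sh#2 (highest 61.1), the groups overlapped, and its value with CDH11 KD was 0.40 ± 0.39 (q = 0.73), or 0.20 ± 0.29 without sh#1 tumor 1. Between the hairpins, 22 of the 29 values in tumors were above 0 for sh#1 against sh#2, where 49.2% of all genes were. That count includes sh#1 tumor 1. The median was 0.25, or 0.17 without sh#1 tumor 1, and 0 passed. In culture 9 of 33 values were above 0, where 50.8% of all genes were. Whether the difference itself changed between tumors and culture was not tested.

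**Figure D5:**
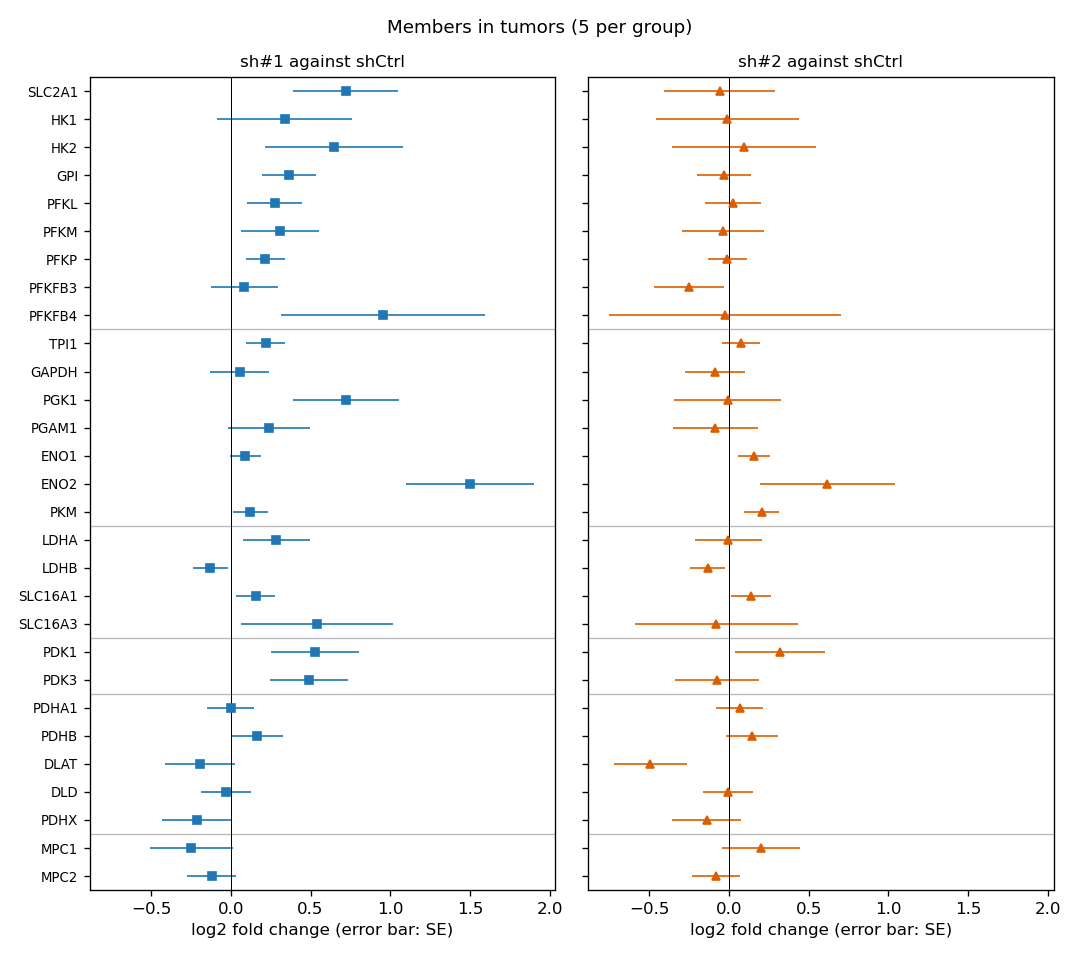
Log2 fold changes in tumors (x axes, error bars are SE, 5 tumors per group) of the 29 genes tested (y axis, in pathway order), for sh#1 against shCtrl (left) and sh#2 against shCtrl (right), which share the shCtrl tumors. ENO2 has the largest value on both sides, 1.50 and 0.62, and no gene passed q under 0.1.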

How the data were processed

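RNA-seq counts of 9 cultured libraries and 15 tumors were used. The values are raw read counts of genes, as the authors deposited them, in 3 tables (cultured cells, human genes of tumors, mouse genes of tumors), from single reads of 75 bp, with hg38 as the human build. For cultured cells their methods name CLC Genomics Workbench and RaNAseq, and for tumors Trim Galore and HISAT2. The counting tool, the annotation, the mouse build and the separation of mouse reads are not given in the sources used here. A gene whose reads map to several places may be undercounted. In the cultured table, 13 rows without a value were left out. The list of barcodes was read for the mix of each tumor alone.

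From these counts, edgeR 4.0.16 in R 4.3.3 was run on all genes (TMM, filterByExpr, robust quasi-likelihood fit, Benjamini-Hochberg), and q had to be under 0.05 (cultured cells) or 0.1 (tumors). CDH11 KD joined both hairpins, and a fit of 3 groups gave each hairpin, their difference and their mean. SE is the absolute log2 fold change over the root of F. Scripts were tested on simulated counts. Alternatives were each library left out, the replicate block, DESeq2 1.42.0, normalization by upper quartile, a filter of 10 counts per library or none, 3 groups, the mouse to human ratio and pseudogenes in tumors. Scaling factors without the 34 genes were added after the data were seen. Shares over all genes are given for the main edgeR fits alone, so counts from the alternatives stand without them. Intervals for single libraries were not computed, and totals of 414849 counts and up limit genes with few counts.

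The members and gene lists were chosen with earlier results of these data known. Values per library were given for PDK1, SLC2A1 and LDHA and for genes past the threshold with CDH11 KD or with both hairpins in the same direction. Other genes were given by range and count, and genes of the other lists were named where they passed with CDH11 KD. Tumor values of PGK1 and the other genes at an unadjusted p under 0.05 were chosen after their values were seen. Promoter letters were read from RefSeq windows, and exons from GENCODE v44. Counts of any 2 replicates differed beyond sampling noise (chi-square over degrees of freedom of at least 1.30 in cultured cells and 1.79 in tumors), so each library was kept.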

Additional observations from a re-analysis of the deposited data

Results flagged for a closer look

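In the groups of 5 tumors, 39 sets of values (13 genes in 3 groups) were examined for 1 tumor far from the other 4. Independent, normally distributed sets would give about 1 in 20, a rate that need not hold for genes of the same tumors, and 6 were found. The sh#1 tumor 1, which also had the fewest counts and the highest mouse share, accounted for 4 of them: PGK1 at 1565 normalized CPM (489 to 736 in the other sh#1 tumors), ENO2 at 297 (74.2 to 122), SLC16A3 at 105 (21.2 to 29.4) and PDK1 at 119 (31.8 to 51.5). The others were PGK1 in shCtrl tumor 3 at 767 (354 to 429.6 in the other shCtrl tumors) and PDK1 in sh#2 tumor 5 at 61.1 (40.6 to 45.7). No cause was tested.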

How the results depend on the processing

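With CDH11 KD in cultured cells, the 10 genes called higher became 20 in the fit of 3 groups, 15 by DESeq2 and 9 under the replicate block. In cultured cells, PGAM1 made 1 gene lower with sh#1 under upper quartile normalization and 1 with at least 10 counts in every library, and DESeq2 left 1 gene higher in sh#1 than in sh#2. In tumors DESeq2 called 1 gene higher with sh#1. The causes were not tested.

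With each library left out, genes called higher ranged from 6 to 13 with CDH11 KD in cultured cells, from 1 to 3 for sh#1 over sh#2 in cultured cells and from 0 to 1 with sh#1 in tumors. Genes called lower ranged from 0 to 1 with sh#1 and from 0 to 1 with sh#2 in cultured cells. PDK1, SLC2A1, ENO2 and PDHA1 were among those lost with CDH11 KD without any 1 shCtrl library.

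Signs turned in tumors alone, for genes that passed no test there. With CDH11 KD, GAPDH was at 0.00450 under the replicate block, 0.00727 with the mouse to human ratio as a covariate and from -0.11 to 0.15 with each library left out. With each library left out, HK1 ranged from -0.022 to 0.60, PDHA1 from -0.052 to 0.13 and SLC16A3 from -0.0059 to 0.68. With the covariate, LDHA was at -0.00268 and SLC16A3 at -0.15. With sh#2, LDHA was at 0.017 under the replicate block and from -0.11 to 0.20 with each library left out, and SLC2A1 from -0.19 to 0.17. For sh#1 against sh#2, PDK1 ranged from -0.057 to 0.37 with each library left out. Apart from these and the left-out libraries, recomputed values were counted for the 15 genes given by library in cultured cells. These kept direction and side of the threshold in 349 values in cultured cells and in 182 in tumors. In cultured cells 9 values gained and 5 lost a call. Calls lost by DLAT, LDHB and PFKFB3 are outside this count.

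PDHA1 was lost with CDH11 KD under the replicate block (q = 0.056) and upper quartile normalization (q = 0.055). Replicate numbers did not pair the libraries: same-numbered libraries had correlations of deviations from -0.0056 to 0.057 in cultured cells (0 of 9 pairs over 0.1) and from -0.090 to 0.12 in tumors (2 of 15). Adding pseudogenes to their parent gene was not run in cultured cells, whose table lists none by symbol. Upper quartile normalization moved the median of all genes by -0.040 at most. Low counts limit ALDOC, HK1 and SLC2A3 in cultured cells and ALDOA, PGAM1 and PFKFB4 in tumors. Why ALDOA and PGAM1 had so few human counts in tumors was not tested.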
